A study of Mus musculus with 24 samples.

Results

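The genes described here encode 9 surface receptors of megakaryocytes and platelets: Itga2b, Itgb3, Gp1ba, Gp1bb, Gp5, Gp6, Gp9, Clec1b and Cd9. They were chosen by name, and all 9 were found among the 47069 gene identifiers of a table of read counts for 24 RNA-seq libraries. The cells were mouse fetal liver cells, labelled Gata1s-FLCs, from embryos at E12.5 to E13.5. The mice were of a B6J.129(Cg) strain that carries Cas9 and EGFP under the CAG promoter at the Gt(ROSA)26Sor locus (the labelled allele ends in Fezh/J). Every group, controls included, also carried sgGata1, a guide against Gata1. Gata1s is the usual name for an amino-terminally shortened GATA1, a transcription factor of megakaryocytes and red cells.

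The cells carried a second transgene, labelled miR-125b in 12 libraries and miR-ctrl in the other 12. Each construct was sampled under 4 conditions with 3 replicates: after doxycycline at 1 µg/mL for 48 h (Day2), for 10 days (Day10) and for 13 days (Day13), and on day 13 after doxycycline had been withdrawn on day 10 (Day13WD). Doxycycline is the usual inducer of tetracycline-controlled transgenes. The labels do not say which promoter drove the microRNA, whether a group came from 1 clone, pooled embryos or separate embryos, or what libraries with the same replicate number shared. The p-values given here therefore measure the spread between these libraries, which may be partly technical.

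Platelet receptors are made by the megakaryocyte and handed to the platelets it sheds, and most of these genes are transcribed late in megakaryocyte maturation. Gp1ba, Gp1bb, Gp5 and Gp9 encode the 4 chains of the GPIb-IX-V complex, which holds platelets to von Willebrand factor on a damaged vessel wall. Itga2b and Itgb3 encode integrin αIIbβ3, the fibrinogen receptor that links platelets into an aggregate. Gp6 encodes the collagen receptor GPVI, Clec1b encodes CLEC-2, the receptor for podoplanin, and Cd9 encodes a tetraspanin abundant in the platelet membrane. GATA and ETS family transcription factors drive many of these promoters. MicroRNAs lower the mRNAs whose 3′ untranslated regions pair with their seed, bases 2 to 8 of the mature strand.

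The mature microRNA named on the label of the second transgene is shown because the labels separate the 2 arms by it. RefSeq lists the same 22-base strand at Mir125b-1 (chr9:41581940-41581961, plus strand) and at Mir125b-2 (chr16:77646279-77646300, plus strand) of build GRCm38.p6, and the capitals mark the seed.
mmu-miR-125b-5p: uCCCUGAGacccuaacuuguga

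The letters complementary to that seed, CTCAGGG, were searched in the longest annotated 3′ untranslated region of each of the 9 receptor genes. They occurred in Itgb3 alone, 3 times in 3331 bases, while 17.3% of the 11678 tested genes with an annotated region held at least 1 match. The 3 Itgb3 matches start at bases 249, 701 and 1144 of the region, at chr11:104667394-104667400, chr11:104667846-104667852 and chr11:104668289-104668295 on the plus strand. They are shown with 10 bases on each side, and the capitals mark the match. None was followed by the A that makes an 8-base site, since the next base was G in each.
Itgb3 base 249: agcctttgtcCTCAGGGgccctcccca
Itgb3 base 701: ggcaaggccaCTCAGGGgtcatgcatg
Itgb3 base 1144: atgctttctcCTCAGGGgagagtgcag

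The regions of the other 8 genes ran from 164 bases (Itga2b) to 4898 bases (Gp6). A match is a run of letters and not a tested site.

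RefSeq promoter windows, from 250 bases before to 50 bases after the annotated start, were available for 8 of the 9 genes, all but Itgb3. The GPIb-IX-V promoters are shown because these 4 genes encode the chains of 1 complex. They were also the ones called against miR-ctrl in the edgeR fits of all 24 libraries described later. The letters searched on both strands were AGATAA and TGATAA, each also with G as the last base, for GATA factors, and AGGAAG, also with C as the first base, for ETS factors, and the capitals mark the matches, which read as the reverse complement where the match lies on the other strand. Both sets were also searched in all 32851 promoter windows of the table.
Gp1ba promoter, chr11:70638872-70639171, plus strand: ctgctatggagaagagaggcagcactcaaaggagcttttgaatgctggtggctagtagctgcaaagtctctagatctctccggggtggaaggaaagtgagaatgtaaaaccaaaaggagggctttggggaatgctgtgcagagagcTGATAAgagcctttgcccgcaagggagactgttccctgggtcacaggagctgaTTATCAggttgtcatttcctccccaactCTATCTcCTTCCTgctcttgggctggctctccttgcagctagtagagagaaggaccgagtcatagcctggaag
Gp1bb promoter, chr16:18622354-18622653, minus strand: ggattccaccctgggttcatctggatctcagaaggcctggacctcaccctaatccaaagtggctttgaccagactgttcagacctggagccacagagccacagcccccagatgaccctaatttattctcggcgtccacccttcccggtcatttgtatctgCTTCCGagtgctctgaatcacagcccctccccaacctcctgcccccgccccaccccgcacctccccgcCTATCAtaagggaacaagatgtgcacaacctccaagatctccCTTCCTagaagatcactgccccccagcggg
Gp5 promoter, chr16:30310732-30311031, minus strand: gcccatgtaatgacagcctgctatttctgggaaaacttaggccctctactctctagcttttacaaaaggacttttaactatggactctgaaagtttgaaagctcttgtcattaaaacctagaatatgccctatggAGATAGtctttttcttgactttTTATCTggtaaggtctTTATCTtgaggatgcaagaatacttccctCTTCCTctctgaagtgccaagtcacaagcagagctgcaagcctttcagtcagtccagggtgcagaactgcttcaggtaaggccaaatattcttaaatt
Gp9 promoter, chr6:87777820-87778119, plus strand: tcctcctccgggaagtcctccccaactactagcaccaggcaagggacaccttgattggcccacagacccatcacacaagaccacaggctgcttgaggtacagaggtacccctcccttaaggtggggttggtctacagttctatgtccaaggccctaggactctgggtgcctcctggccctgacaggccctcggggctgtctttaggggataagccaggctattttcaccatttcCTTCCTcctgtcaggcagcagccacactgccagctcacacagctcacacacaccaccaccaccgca

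GATA letters occurred in 5 of the 8 receptor promoters (Gp1ba, Gp1bb, Gp5, Gp6 and Clec1b), against 29.8% of all promoter windows. At least 2 matches were found in 3 of them, Gp1ba with 3, Gp5 with 3 and Clec1b with 2, against 7.77% of all windows. ETS letters occurred in 6 of the 8 (all but Gp6 and Clec1b), against 46.5% of all windows. Both sets occurred in Gp1ba, Gp1bb and Gp5, against 12.6% of all windows. These counts describe letters in a window and show no binding.

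Total counts ran from 14694900 to 23755245 reads per library. The lowest count of any receptor was 38 reads, for Clec1b in miR-125b number 1 at Day13, a library of 20910928 reads. Levels are given as CPM, read counts relative to library size, after TMM scaling, which adjusts for differences in library composition. Gata1 was read in every library with at least 3051 counts, but counts per gene do not tell its full-length from its short form, so they do not check the sgGata1 label. Megakaryocyte markers that are not among the 9 genes (10 genes, Pf4 and Vwf among them) summed to between 2072 and 5242 CPM. Erythroid markers summed to 274 to 621 CPM, mast cell or basophil markers to 239 to 1374, neutrophil or monocyte markers to 21.8 to 107, stem or progenitor markers to 24.3 to 78.4, endothelial or hepatic markers to 4.09 to 25.8 and lymphoid markers to 0.71 to 4.31. These sums follow their most abundant genes and do not measure the amount of a cell type. Among mast cell or basophil markers Gzmb averaged 433 CPM over the 24 libraries and the next, Cpa3, 65.3. Among erythroid markers Tfrc averaged 330 CPM and the next, Epor, 47.0. Slc4a1, Mecom and Ttr had 0 counts in all 24 libraries. 1 gene raised a doubt about the labels. Arid3a, a transcription factor gene known as a target of miR-125b, read 28.5 to 41.3 CPM with miR-125b at Day2, 29.8 to 32.8 at Day10 and 26.7 to 35.6 at Day13WD, each time below every miR-ctrl library of that condition (50.8 CPM or more in these 3). At Day13, with doxycycline labelled as kept on, it read 45.4 to 57.5 CPM with miR-125b and overlapped miR-ctrl (49.5 to 71.9 CPM). If doxycycline drives the microRNA, the labels Day13 and Day13WD would give the opposite pattern, so every value given for Day13 or Day13WD belongs to the libraries labelled so, and whether those 2 labels are right was not tested. The mean of the 4 conditions is the same whichever way these 2 labels are read. In bulk RNA, fewer cells of a type and less RNA per cell cannot be told apart.

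Per kilobase of exon, the only scale on which genes are compared here, Itga2b was the most abundant receptor transcript, with a median of 293 CPM per kb over the 24 libraries. Gp9 (104), Cd9 (98.0) and Itgb3 (88.1 CPM per kb) followed, and their ranges overlapped. Gp5 stood at 49.5, Gp1ba at 16.7 and Gp1bb at 12.8 CPM per kb. Clec1b, with 2.34, and Gp6, with 1.45 CPM per kb, were the scarcest. Within the integrin the α chain thus exceeded the β chain, and within GPIb-IX-V the 4 chains were not level, with Gp9 above Gp5 and both above the GPIb chains by their medians. The place of Gp1bb is less certain, because 91.1% of its exonic length is shared with another gene, as given below. Exon lengths came from GENCODE M21, which may not be the annotation the reads were counted on. They join all annotated exons of a gene, which can exceed the expressed transcript to an unequal degree, so the order of genes is approximate.

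The counts of some genes are less certain than others. In that annotation 91.1% of the exonic length of Gp1bb is shared with Sept5 on the same strand, and over all libraries 12288 reads were counted for Gp1bb and 974 for Sept5. Clec1b shares 3.61% of its exonic length with Clec9a on the same strand, and Cd9 shares 10.7% with Gm26728 on the opposite strand. Whether the counting used strand is not given in the sources used here.

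**Figure D1:**
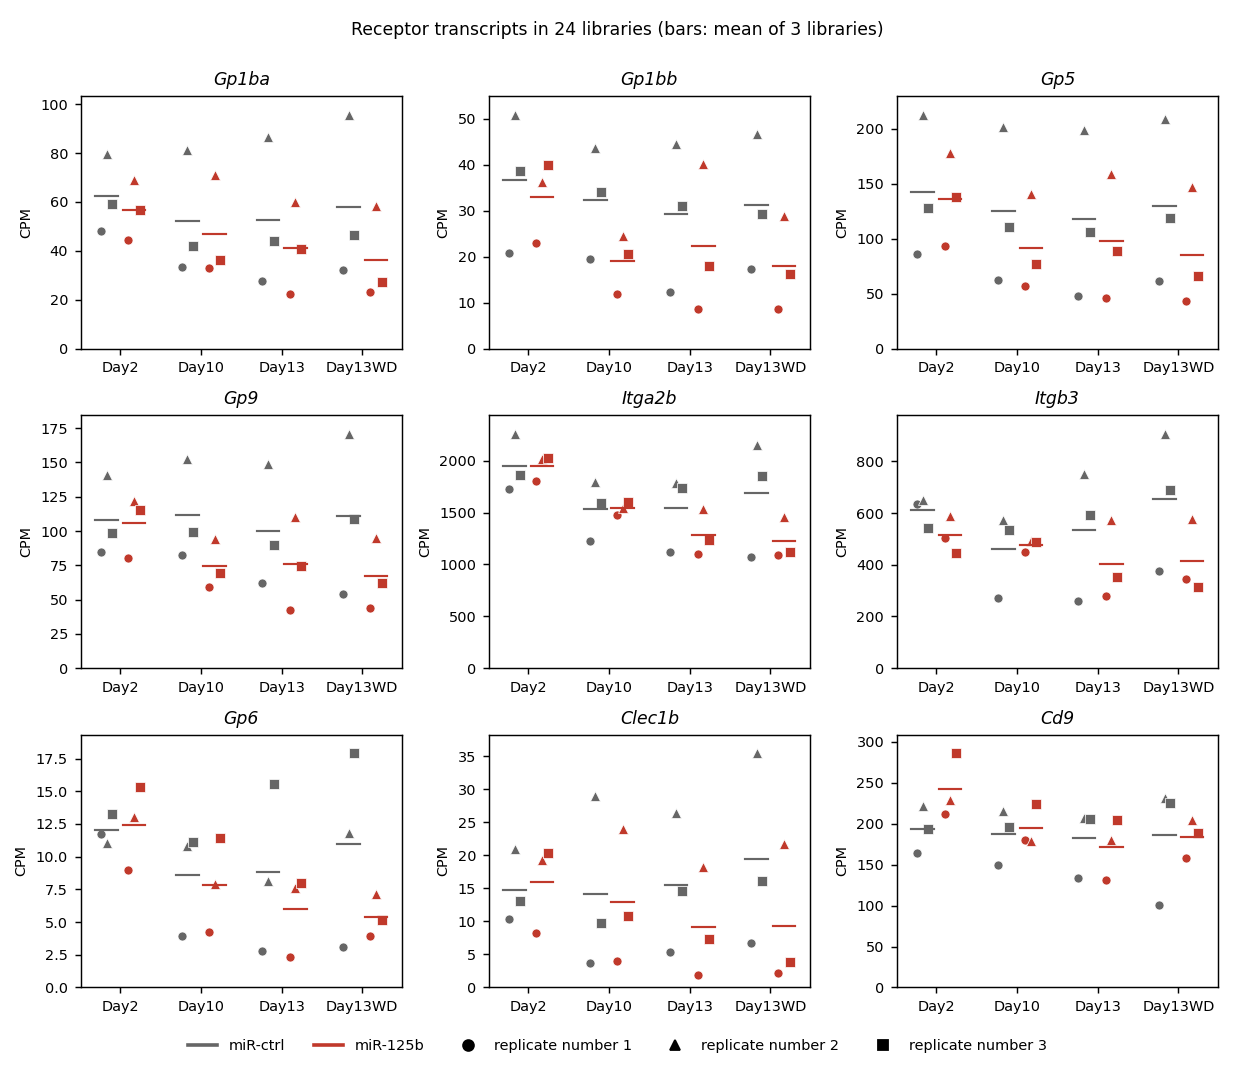
CPM (linear axis from 0) of each receptor gene in the 24 libraries, by condition, with the construct shown by colour, the replicate number by marker shape and the mean of each group of 3 libraries as a bar. For Gp1ba, Gp5 and Gp9, number 2 is highest and number 1 lowest in 8 of 8 groups.

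What separated the libraries most was the replicate number. With the group held fixed, all 9 receptor genes differed between the 3 numbers (edgeR's quasi-likelihood F test, adjusted p over 13419 genes from 4.31e-10 to 0.00687), as did 38.4% of all genes tested. Number 2 was above number 1 for all 9 genes, where 18.5% of all genes were higher. Number 3 was above number 1 for 8 genes, all but Itgb3, against 5.97% of all genes. Number 2 was above number 3 for 5 genes (Clec1b, Gp5, Gp1ba, Gp9 and Gp1bb), against 13.9% of all genes.

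Clec1b spanned the widest range. It lay between 1.82 and 10.3 CPM in the 8 libraries of number 1, between 3.84 and 20.4 in number 3 and between 18.3 and 35.5 in number 2, with means of 5.29 ± 2.97 CPM in number 1 and 24.4 ± 5.75 in number 2 (SD, n = 8). Numbers 1 and 2 did not overlap, but how many of all genes separated so was not counted. The log2 fold change between numbers 2 and 1 was 2.36 ± 0.24 (SE; adjusted p = 1.01e-06), and over all libraries the gene ran from 1.82 to 35.5 CPM, 19.5-fold.

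The GPIb-IX-V genes followed the same order. Gp5 lay between 43.3 and 93.0 CPM in number 1, between 66.2 and 138 in number 3 and between 140 and 213 in number 2, so number 2 did not overlap the rest. The share of all genes that separated so was not counted here either. Gp1ba averaged 33.1 ± 9.21, 44.1 ± 10.3 and 75.1 ± 13.0 CPM in numbers 1, 3 and 2 (SD, n = 8 each). The log2 fold changes of number 2 over number 1 were 1.57 ± 0.09 for Gp5, 1.42 ± 0.12 for Gp1bb, 1.21 ± 0.10 for Gp1ba and 1.03 ± 0.09 for Gp9 (SE).

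The integrin and the tetraspanin differed less. Number 2 exceeded number 1 by 0.46 ± 0.08 on the log2 scale for Itga2b, 0.73 ± 0.17 for Itgb3 and 0.46 ± 0.09 for Cd9 (SE). Gp6 had another order: number 3 was highest, with 12.2 ± 4.22 CPM against 9.68 ± 2.25 in number 2 and 5.13 ± 3.37 in number 1 (SD, n = 8), and numbers 2 and 3 did not differ by the test (adjusted p = 0.316). Within groups, number 2 was the highest and number 1 the lowest library in 8 of 8 groups for Gp1ba, Gp5 and Gp9, a pattern shown by 0.812% of the genes tested.

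Replicate number accounted for 79.7% of the variance of log2 CPM of Gp5, 71.5% of that of Gp1ba and 69.4% of that of Clec1b. The median over the 9 genes was 62.8%, and over all genes tested it was 18.3%. Condition accounted for 34.9% of the variance of Itga2b, more than for any other of the 9. The construct accounted for 14.9% of the variance of Gp9 and 13.5% of that of Gp1bb, and for less than 9% of each other gene's.

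**Figure D2:**
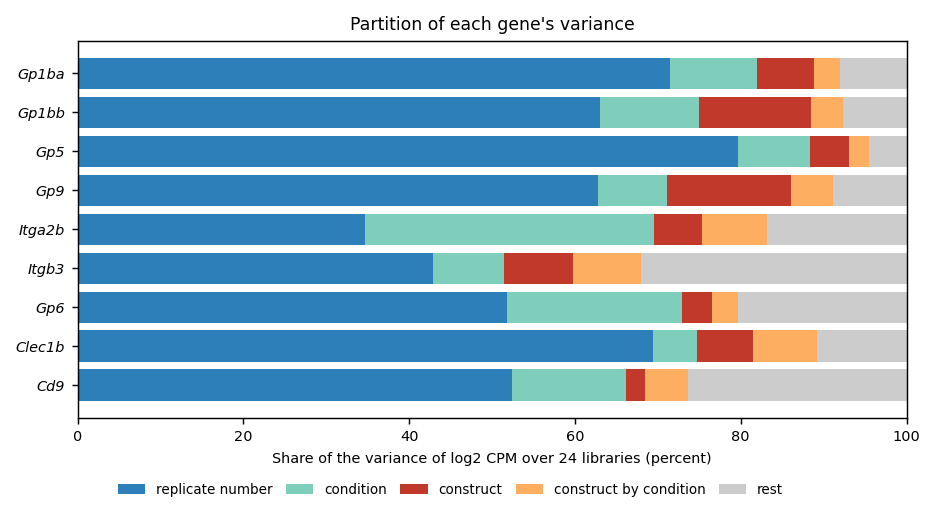
Share of each receptor gene's variance of log2 CPM (percent, horizontal axis) over 24 libraries that went with replicate number, condition, construct, construct by condition, and the rest. Replicate number takes the longest segment for each gene except Itga2b, where condition (34.9%) and replicate number (34.7%) are about level.

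Other markers moved with the replicate number too. Of the 10 other megakaryocyte markers, 9 were higher in number 2 than in number 1, among them Pf4 (log2 fold change 0.96) and Vwf (1.05). Among all genes 18.5% were higher. The sum of these markers ran from 3860 to 5242 CPM in number 2 against 2072 to 2730 in number 1. Of 8 erythroid markers tested, 6 were lower in number 2, and the share of all genes lower is not given here. Of 10 mast cell or basophil markers, 6 were higher and 1, Gzmb, was lower. Their sum, in which Gzmb had the highest mean level, ran from 458 to 1374 CPM in number 1 and from 239 to 522 in number 2. Gata1 itself was higher in number 2 (log2 fold change 0.79 ± 0.10 SE, adjusted p = 2.05e-06). The part of these cell mixtures in the receptor differences was not tested.

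The 9 genes rose and fell together over libraries. Pearson's r of log2 CPM over 24 libraries ran from 0.61 (Itgb3 with Cd9) to 0.97 (Gp1ba with Gp5) over the 36 pairs of genes, with a median of 0.83, and from 0.91 to 0.97 among the GPIb-IX-V genes. Clec1b followed those 4 slightly less closely than they followed each other (median 0.95), with r of 0.94 with Gp1ba, 0.91 with Gp1bb, 0.94 with Gp5 and 0.91 with Gp9. These correlations describe libraries that share their replicate number, and they carry no test. By a rule that ranked 9730 other genes of at least 2 log2 CPM on average, the 5 whose pattern was most like the mean of the 9 were Tspan9 (r = 0.96), Rbm38, Adgre5, Cdh23 and Ufsp1 (r = 0.95 for the fifth). After group means were removed the first 5 were Tspan9, Rhoj, Stard10, Ctsd and 1810058I24Rik, each with r = 0.98. Tspan9 encodes another tetraspanin and was scarce, with a median of 6.33 CPM.

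Whether the miR-125b construct altered the receptor genes was asked in each condition against miR-ctrl of the same condition. The fit that compares the groups without regard to replicate number called none of the 9 genes in any condition or in the mean of the 4 conditions. In that fit 0% of all genes were called at Day2, 0.872% at Day10, 0% at Day13, 0.119% at Day13WD and 1.28% in the mean. At an unadjusted p under 0.05 it gave 1 receptor gene at Day13WD (Itga2b) and 0 in the others, and DESeq2 also called 0 in each. Counts at an unadjusted p, here and later, stand without the share of all genes and are not read as a result. Same-numbered libraries deviated together across the table, as given under processing, so the fit with replicate number as a block is printed beside it. It changed the call for Gp1bb and Gp9 at Day10 and for the 4 GPIb-IX-V genes at Day13WD and in the mean. No receptor gene had groups without overlap in any condition. Over Day2, Day10, Day13 and Day13WD in turn, 6.22%, 10.5%, 4.12% and 5.62% of all genes had groups without overlap and lower with miR-125b, and 6.09%, 9.14%, 4.4% and 5.77% had them higher.

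At Day13WD the 4 GPIb-IX-V genes were lower with miR-125b in 3 of 3 pairs of the same number, as were 16.4% of all genes. Gp1bb read 8.55, 28.9 and 16.3 CPM with miR-125b and 17.4, 46.7 and 29.4 CPM with miR-ctrl, in the order of replicate numbers 1, 2 and 3. Each miR-125b library lay below its same-numbered control, while the groups overlapped. The log2 fold change was -0.84 ± 0.20 with the block (SE, adjusted p = 0.0331) and -0.80 ± 0.58 without it (adjusted p = 0.751).

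Gp9 at Day13WD read 44.1, 95.1 and 62.2 CPM with miR-125b and 54.2, 171 and 109 CPM with miR-ctrl. Gp5 read 43.3, 147 and 66.2 CPM against 61.8, 209 and 119 CPM. Gp1ba read 23.4, 58.2 and 27.3 CPM against 32.2, 95.7 and 46.5 CPM. In each of these genes, the GPIX, GPV and GPIbα chains, the number 2 library with miR-125b was above the number 1 library with miR-ctrl, so the reduction showed within numbers and not between whole groups. With the block their log2 fold changes were -0.68 ± 0.15 for Gp9 (adjusted p = 0.0255), -0.62 ± 0.14 for Gp5 (0.0325) and -0.66 ± 0.16 for Gp1ba (0.0388). Without it they were -0.73 ± 0.43, -0.61 ± 0.63 and -0.68 ± 0.51, with adjusted p of 0.672, 0.843 and 0.761. Among all genes, 1.09% were called lower at Day13WD with the block and 1.86% in either direction.

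These Day13WD calls were close to the threshold. When 1 of the 6 libraries was left out, the blocked fit called between 0 and 4 of the 9 genes. Gp9 and Gp1ba were called only without miR-ctrl number 1, Gp1bb only without miR-125b number 2, and Gp5 without either of these. Without all libraries of number 3 it called 0, without those of number 2 it called 2, and without those of number 1 it called 6. The last count goes beyond the 4 GPIb-IX-V genes. Without number 3 the log2 fold changes of these 4 stayed negative, from -0.83 for Gp1bb to -0.51 for Gp5.

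The other receptors at Day13WD did not pass the test in either fit. Clec1b read 2.16, 21.7 and 3.84 CPM with miR-125b and 6.80, 35.5 and 16.1 CPM with miR-ctrl, lower in 3 of 3 pairs, and its log2 fold change with the block was -1.29 ± 0.38 (adjusted p = 0.102). Itgb3, the gene with the seed matches shown above, read 347, 578 and 316 CPM against 375, 906 and 688 CPM. Its log2 fold change was -0.63 ± 0.27 (adjusted p = 0.262), with a 95% interval from -1.20 to -0.06 before adjustment. Its partner Itga2b read 1091, 1462 and 1119 CPM against 1071, 2150 and 1856 CPM, and gave -0.44 ± 0.13 (adjusted p = 0.0900). Gp6 gave -0.83 ± 0.36 (adjusted p = 0.262). Cd9 read 159, 205 and 188 CPM against 100, 231 and 226 CPM, with 2 of 3 pairs lower.

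At Day10, Gp1bb and Gp9 were lower with miR-125b in the blocked fit. Gp1bb read 12.01, 24.6 and 20.6 CPM with miR-125b and 19.4, 43.6 and 34.0 CPM with miR-ctrl, for a log2 fold change of -0.75 ± 0.20 (adjusted p = 0.0249; 0.555 without the block). Gp9 read 59.5, 94.5 and 69.3 CPM against 82.7, 153 and 99.2 CPM, for -0.56 ± 0.15 (adjusted p = 0.0274; 0.534 without the block). Gp5 was lower in 3 of 3 pairs, as were 23.4% of all genes, and was not called (-0.39 ± 0.14, adjusted p = 0.0896). With the block 3.89% of all genes were called lower at Day10 and 8.63% in either direction, beside 2 of the 9 receptor genes. Leaving out 1 library gave 0 to 2 calls. Gp1bb kept its call only without miR-125b number 1 or miR-ctrl number 2, and Gp9 only without miR-125b number 1. Leaving out number 3 gave 0 calls, and leaving out number 1 or number 2 gave 1 call each.

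At Day2 and at Day13 neither fit called any of the 9 genes, and the block called 0% and 0.0149% of all genes. At unadjusted p under 0.05 the blocked fit gave 1 receptor gene at Day2 and 3 at Day13, and DESeq2 with the block called 0. At Day13 the fitted change was negative for all 9 genes, with a median of -0.38, and 8 of them were lower in 3 of 3 pairs, while 17.3% of all genes were. The steepest was Clec1b, which read 1.82, 18.3 and 7.29 CPM with miR-125b and 5.30, 26.5 and 14.6 CPM with miR-ctrl (-0.92 ± 0.38 with the block, adjusted p = 0.720). Gp9 gave -0.41 ± 0.15 (adjusted p = 0.668). At Day2 the changes ran from -0.27 to 0.33, and Cd9 was the gene at the upper end (0.33 ± 0.15, adjusted p = 0.532).

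**Figure D3:**
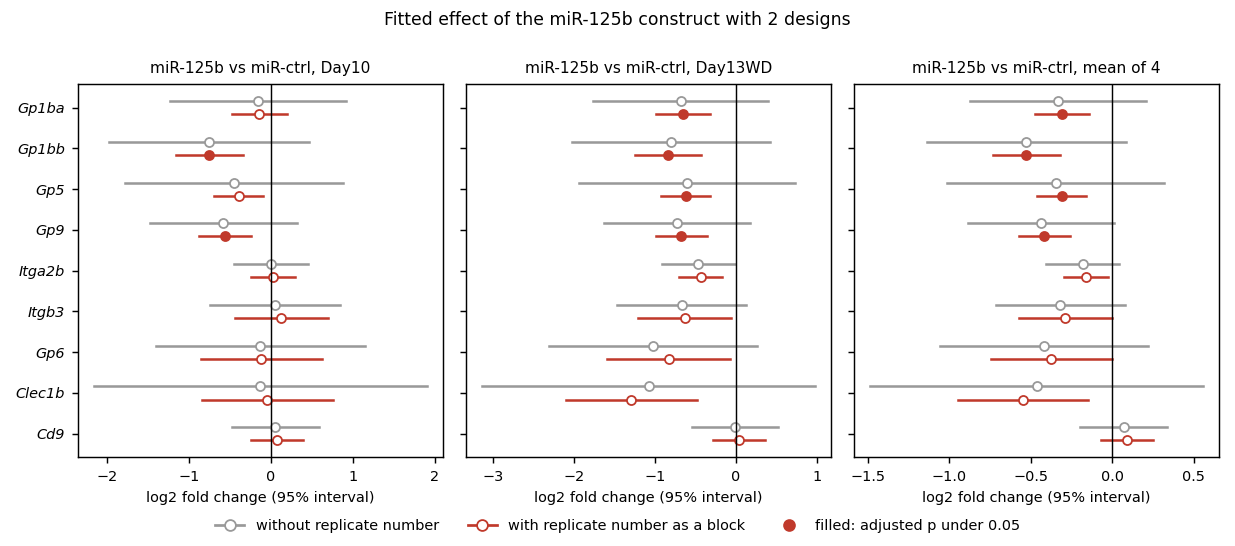
Log2 fold change of miR-125b over miR-ctrl (horizontal axis, with 95% interval) for each receptor gene at Day10, at Day13WD and in the mean of the 4 conditions, fitted without and with replicate number as a block. Filled points passed an adjusted p of 0.05: Gp1bb and Gp9 at Day10, and Gp1ba, Gp1bb, Gp5 and Gp9 in the other 2 panels, all with the block.

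Averaged over the 4 conditions, the GPIb-IX-V genes were again the ones called by the blocked fit, 4 of 9 lower, where 3.09% of all genes were lower and 6.39% were called in either direction. The log2 fold changes were -0.53 ± 0.10 for Gp1bb (adjusted p = 0.00215), -0.42 ± 0.08 for Gp9 (0.00173), -0.31 ± 0.07 for Gp5 (0.0122) and -0.31 ± 0.08 for Gp1ba (0.0221). Without the block the same values were -0.53 ± 0.29, -0.44 ± 0.21, -0.35 ± 0.32 and -0.33 ± 0.26, and adjusted p ran from 0.433 to 0.765. The 4 calls held in each of the 24 blocked fits that left out 1 library. They were lost without number 3, where no gene of the 9 was called. The log2 fold changes stayed near those above there, with -0.33 for Gp1ba, -0.51 for Gp1bb, -0.27 for Gp5 and -0.45 for Gp9. Without number 2 Gp1ba had an adjusted p of 0.0689. Without number 1, 7 of the 9 were called, so the calls were not confined to these 4 genes.

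Over the 12 same-number pairs, Gp1ba was lower with miR-125b in 12, Gp9 in 11, and Gp1bb, Gp5 and Itgb3 in 10 each. At least 10 of 12 were lower for 6.29% of all genes. Clec1b was lower in 9 pairs, Itga2b and Gp6 in 7 and Cd9 in 6. By replicate number, the mean log2 ratio of Gp1bb was -0.51, -0.54 and -0.58 in numbers 1, 2 and 3, that of Gp9 was -0.35, -0.55 and -0.34, and that of Gp1ba was -0.23, -0.41 and -0.29. Gp5 gave -0.15, -0.40 and -0.38. Itgb3 was not of 1 sign, with 0.10, -0.35 and -0.57, and neither was Itga2b, with 0.08, -0.29 and -0.27. If the same cultures were sampled at several times, the 12 pairs are not independent, and the adjusted p of the mean are then too small.

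**Figure D4:**
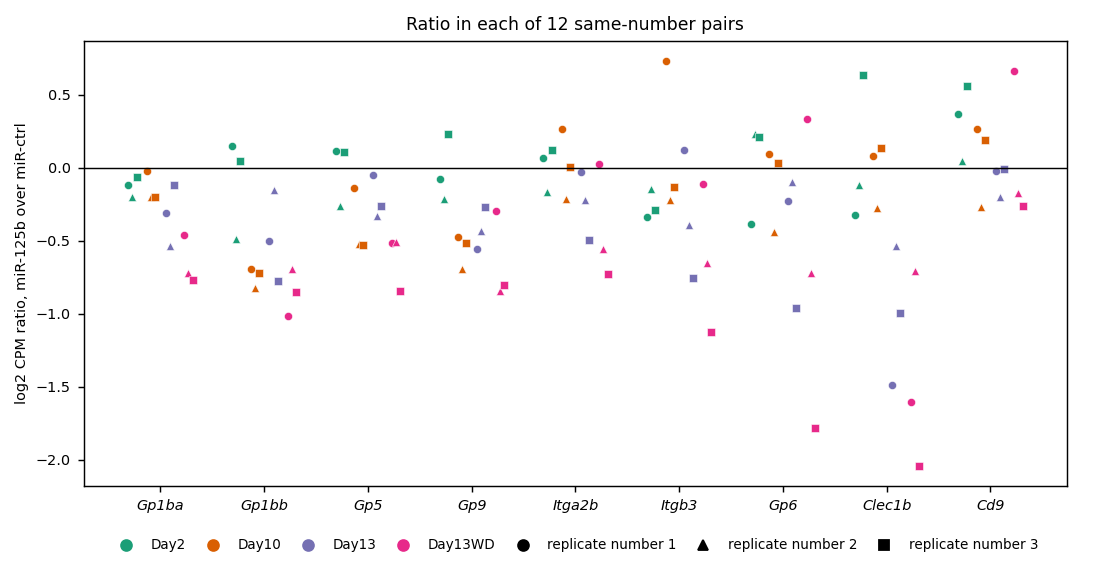
Log2 ratio of CPM (miR-125b over miR-ctrl, vertical axis) in each of the 12 same-number pairs, for each receptor gene, with the condition shown by colour and the replicate number by marker shape. All 12 Gp1ba points and 11 of 12 Gp9 points lie below 0, and Cd9 lies on both sides, with 6 of 12 below.

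The receptors without a call in the mean gave intervals that include moderate reductions. The fitted change of Clec1b with the block, -0.55 ± 0.19, was at least as large in size as those of the GPIb-IX-V genes. With the block the 95% intervals were -0.95 to -0.15 for Clec1b (adjusted p = 0.103) and -0.30 to -0.03 for Itga2b (0.152), before adjustment over genes. Itgb3 gave -0.29 ± 0.13 (adjusted p = 0.246) and Gp6 -0.37 ± 0.18 (0.247). Cd9 gave 0.09 ± 0.08, with an interval from -0.07 to 0.25.

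Whether the construct's effect changed with withdrawal or with time was tested by interaction. None of the 9 genes passed for withdrawal at Day13 or for Day10, Day13 or Day13WD against Day2, with or without the block, and no gene of the 13419 did. Without the block 0 of 9 had an unadjusted p under 0.05 in each of the 4 interactions. With the block 6 did for Day13WD minus Day2, 2 for Day10 minus Day2 and 0 in the others, and DESeq2 called 0 in all. Without the share of all genes at that cutoff, these counts do not set the 9 genes apart. The calls at Day13WD and their absence at Day2 therefore do not show that the effect differed. The comparisons with Day13 and the time interactions were added after the data had been seen.

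Between the libraries labelled Day13WD and Day13, which differ by withdrawal of doxycycline, no receptor gene was called in either arm, and the direction of each change rests on those labels, which Arid3a puts in doubt. In the blocked fit, Day13WD against Day13 gave fitted changes from -0.26 to 0.11 with miR-125b and from -0.0023 to 0.32 with miR-ctrl, and 0.0522% and 0.00745% of all genes were called. No receptor gene had an unadjusted p under 0.05 in either arm with either fit, and DESeq2 called 0. The widest 95% interval with the block, that of Clec1b, reached from -0.90 to 0.76 with miR-125b, so changes within it were not excluded for that gene. The interval of Itga2b reached from -0.34 to 0.20.

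Receptor transcripts were lower at later times than at Day2 in the miR-125b arm. In the blocked fit, 7 of 9 genes were lower at Day13 than at Day2, where 5.75% of all genes were lower and 9.54% called in either direction, and the fit without the block called 0 (1.27% of all genes). Itga2b fell from 1807, 2018 and 2030 CPM at Day2 to 1097, 1531 and 1236 CPM at Day13. These groups did not overlap, but how many of all genes separated so was not counted. The log2 fold change of Itga2b was -0.61 ± 0.13 (adjusted p = 0.00634). Itga2b kept its call in each of the 6 fits without 1 library, the only one of the 7 to do so. Gp6 gave -1.18 ± 0.36 (adjusted p = 0.0431), Gp1bb -0.77 ± 0.20 (0.0192), Gp5 -0.62 ± 0.14 (0.0115), Gp9 -0.57 ± 0.15 (0.0233), Gp1ba -0.56 ± 0.16 (0.0338) and Cd9 -0.51 ± 0.15 (0.0389).

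In the same comparison Clec1b gave -1.19 ± 0.39 (adjusted p = 0.0614) and Itgb3 -0.42 ± 0.27 (0.348). Leaving out 1 library gave 1 to 7 calls, and leaving out number 1, 2 or 3 gave 1, 6 and 0. Because of the doubt about the labels, the libraries labelled Day13WD were also set against Day2, a comparison added after the data had been seen. With the block 5 of 9 were lower there (Itga2b, Gp1ba, Gp1bb, Gp5 and Gp9, from -0.68 for Itga2b to -1.02 for Gp1bb), where 2.89% of all genes were lower and 4.88% called in either direction, and without it 0 were called (0.209% of all genes). Both comparisons share the Day2 libraries. Leaving out 1 library gave 1 to 6 calls, and leaving out number 1, 2 or 3 gave 4, 6 and 0. In the miR-ctrl arm the same comparison called 0 of 9 (0.164% of all genes with the block, 0% without), with 0 at an unadjusted p under 0.05 in both fits and 0 by DESeq2.

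Markers of cell types moved with time in the miR-125b arm as well. From Day2 to Day13 with the block, the 10 other megakaryocyte markers had a median log2 change of -1.15, with 9 of 10 below 0, against -0.01 for all genes, and Vwf (-1.55, adjusted p = 0.00367) and Mmrn1 (-1.13, 0.0417) were called lower. Their summed level ran from 2730 to 4261 CPM at Day2, 2072 to 4045 at Day13 and 2281 to 3878 at Day13WD. Mast cell or basophil markers had 3 of 10 called higher (Mcpt8, Prss34 and Gzmb), with a median of -0.99 over the list. Their sum, in which Gzmb had the highest mean level, was 295 to 506 CPM at Day2 and 403 to 1374 at Day13. Neutrophil or monocyte markers had 2 of 9 higher (Mpo and Ctsg), and summed to 51.8 to 77.3 CPM at Day2 and 36.3 to 55.8 at Day13. Mcpt8 (mean 1.91 CPM over the 24 libraries), Prss34 (3.69) and Ctsg (0.69) were scarce, each with a lowest library of 0 CPM. The erythroid marker Tfrc was called higher, 1 of 8, the stem or progenitor marker Cd34 lower, 1 of 4, and the endothelial marker Kdr lower, 1 of 3. The lymphoid list had 0 of 1 called. Among all genes 9.54% were called in this comparison, 5.75% lower. From Day2 to the libraries labelled Day13WD, Vwf and Tubb1 were called lower among the megakaryocyte markers, where 2.89% of all genes were lower. In these markers too, fewer cells and less RNA per cell cannot be told apart, and their part in the receptor differences over time was not tested.

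From Day2 to Day10 with miR-125b, Gp1bb (-0.85 ± 0.20, adjusted p = 0.0250) and Gp5 (-0.65 ± 0.15, adjusted p = 0.0205) were lower with the block, where 2.06% of all genes were and 4.08% were called in either direction. Without the block 0 were called (0.224% of all genes). Leaving out 1 library gave 0 to 3 calls.

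In the miR-ctrl arm no receptor gene was called between Day2 and Day10 (0.149% of all genes with the block, 0% without) or between Day2 and Day13 (0.887% and 0.358%). The blocked fitted changes from Day2 to Day13 were negative for all 9 genes there too (8 of 9 without the block, where Clec1b gave 0.06), with a median of -0.35 against -0.61 with miR-125b. At unadjusted p under 0.05 the blocked fit gave 2 and 3 receptor genes and the fit without the block 0, and DESeq2 called 0. The time interaction above, which called none, is the test of the difference between arms.

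Other cell type markers were read beside the construct comparisons. In the mean of 4 conditions, neutrophil or monocyte markers had 2 of 9 tested genes called higher with miR-125b without the block (Mpo and Ctsg), with a median log2 fold change of 1.02 over the list, and their sum ran from 45.8 to 107 CPM with miR-125b against 25.8 to 37.1 with miR-ctrl at Day10, and from 53.1 to 66.0 against 25.5 to 46.7 at Day13WD. Of the mast cell or basophil markers, Mcpt8 and Prss34 were higher, 2 of 10. Both of these, and Ctsg, were scarce, as given above. Of the 10 other megakaryocyte markers, Nbeal2 was lower and the list's median was -0.10, against -0.01 for all genes. No erythroid marker of 8 was called, and 1.28% of all genes were called in this fit. With the block, Day13WD had 1 of the 10 megakaryocyte markers lower (Nbeal2) and 1 erythroid marker lower (Hba-a1), beside 1.09% of all genes lower. Their part in the receptor differences was not tested.

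Among 25 other platelet surface receptors, 23 were tested. In the mean of 4 conditions without the block, 3 were called: Selp, the P-selectin gene, was higher with miR-125b (log2 fold change 1.54 ± 0.29, adjusted p = 0.00966), Itga2, the collagen-binding α2 integrin, was higher (0.94 ± 0.21, 0.0311), and F2r, the thrombin receptor PAR1, was lower (-0.26 ± 0.06, 0.0276). Selp averaged 1.77 CPM and Itga2 2.57 CPM over the 24 libraries, so these 2 calls rest on scarce transcripts. The list's median was -0.21, with 18 of 23 below 0, against a median of -0.01 for all genes. With the block 8 were called, 2 higher and 6 lower. Among all genes 6.39% were called with the block, 3.09% lower, and 1.28% without it. Of the 23, 18 were higher in replicate number 2 than in number 1 and none lower, where 18.5% of all genes were higher.

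The signalling proteins downstream of these receptors, 20 genes including Syk, Lat and Plcg2, had 0 calls in the construct comparisons without the block. The 2 most abundant, Tln1 and Fermt3, whose proteins talin and kindlin-3 activate αIIbβ3, gave -0.15 ± 0.08 (adjusted p = 0.525) and -0.08 ± 0.07 (0.755) in the mean. With the block 3 of the 20 were called in the mean, named after their values were seen: Plcg2 higher, Lyn and Vav1 lower. Among all genes 6.39% were called. In replicate number 2 against number 1, 14 of the 20 were higher and 1 lower, where 18.5% of all genes were higher.

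Of 17 megakaryocyte transcription factors, Arid3a was the only one called without the block. Arid3a was lower with miR-125b in the mean (-0.77 ± 0.08, adjusted p = 5.85e-05), at Day10 (-0.88 ± 0.16, adjusted p = 0.0230) and at Day13WD (-1.15 ± 0.16, adjusted p = 0.00435), and at Day13 it gave -0.22 ± 0.16 (adjusted p = 0.999). Within the miR-125b arm it was higher in the libraries labelled Day13 than at Day2 with the block (0.61 ± 0.16, adjusted p = 0.0235; 0.0614 without it). At Day13WD it read 31.4, 35.6 and 26.7 CPM with miR-125b and 68.1, 64.1 and 76.3 CPM with miR-ctrl, groups that did not overlap, whereas at Day13 it read 45.4, 57.5 and 53.7 CPM against 49.5, 61.5 and 71.9 CPM, groups that did. Arid3a did not differ between replicate numbers 2 and 1 (log2 fold change 0.01 ± 0.10, adjusted p = 0.972). Gata1 gave -0.22 ± 0.17 in the mean (adjusted p = 0.701). With the block 3 of the 17 were called in the mean, Arid3a and Ikzf2 lower and Erg higher, against 6.39% of all genes called. Erg was scarce, with a mean of 2.57 CPM and a lowest library of 0 CPM.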

How the data were processed

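Gene expression was measured by RNA-seq in 24 libraries, and the authors deposited 1 table of read counts per gene. Per the submitters' processing notes the tools were fastp, HISAT2 2.0.5 and featureCounts on mm10, and the annotation release and strand setting are not given in the sources used here. Groups came from the sample titles. Of 47069 identifiers, 46488 had a symbol in the reference table. Counts were scaled by TMM (factors 0.93 to 1.04), filtered with filterByExpr at a minimum count of 10, which left 13419 genes and all 9 receptors, and fitted by edgeR 4.0.16 (R 4.3.3, limma 3.58.1) over 8 groups with the quasi-likelihood test. Adjusted p are Benjamini-Hochberg over all 13419 genes, with a threshold of 0.05, for every edgeR fit of all 24 libraries in the text. Fits without some libraries were filtered anew and adjusted over the genes kept there. SE and 95% intervals come from the same fit. The fit had 16 residual degrees of freedom, and 14 with replicate number as a block.

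Deviations from group means correlated over genes in all 84 pairs of same-numbered libraries from different groups (r from 0.16 to 0.78). For other numbers the median was -0.30. Deviations from a mean of 3 libraries sum to 0, so that negative value follows in part from the positive ones and is no separate baseline. The replicate numbers were therefore taken to pair libraries, a pairing that comes from the data, since the labels do not say what a number shares. Replicates differed beyond sampling noise (chi-square per degree of freedom 11.6 to 109). DESeq2 1.42.0, other scaling, no filter, fits on the compared groups alone and fits without each library were the alternatives. The code was tested on simulated counts. Symbols, 3′ regions and exon lengths came from GENCODE M21, and promoters and microRNAs from RefSeq. Log2 CPM used a prior count of 2.

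The receptors and gene lists were chosen with earlier results of these data known. Named genes were the 9 receptors, Gata1, Arid3a, up to 3 called genes of each pathway list by size of change (otherwise the 2 most abundant), and the 5 most alike in pattern. Further names were given where a count was small.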

Additional observations from a re-analysis of the deposited data

Results flagged for a closer look

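Cd9 was flagged because the miR-125b and miR-ctrl libraries differed in opposite directions in 2 conditions. It was higher with miR-125b in 3 of 3 pairs at Day2 and lower in 3 of 3 at Day13. The mean log2 ratio changed by -0.40 from Day2 to Day13. In the interaction test of that difference, added after the data had been seen, Cd9 gave -0.41 ± 0.22 with the block (SE, edgeR adjusted p = 0.601), so it did not pass.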

How the results depend on the processing

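Every call of a receptor gene in the construct and time comparisons needed the replicate block: in 262 counts from settings without it, 0 were called. With the replicate block the counts were 2 at Day10, 4 at Day13WD, 4 in the mean of 4 conditions, and, with miR-125b against Day2, 2 for Day10, 7 for Day13 and 5 for Day13WD. With the block in DESeq2 they were 2, 6, 4, 3, 8 and 7. Counts with DESeq2 and counts from fits without some libraries, here and above, stand without the share of all genes in the same fit. With the block and without all libraries of number 1 the counts were 1, 6, 7, 2, 1 and 4, without number 2 they were 1, 2, 4, 2, 6 and 6, and without number 3 they were 0 in all 6. With the block and without 1 library they ranged from 0 to 2, 0 to 4, 4 to 5, 0 to 3, 1 to 7 and 1 to 6. The cause was not tested. The block changed no other count, and the 9 calls between replicate numbers were kept under each other scaling, filter and tool. Of 153 fitted changes of the 9 genes in the construct and time comparisons, 7 changed sign with the block, the largest in size being Clec1b for Day13 against Day2 with miR-ctrl (0.06 without and -0.20 with it); none of the 7 was called in either fit. Among the fold changes reported, the sign also changed for Cd9 in the mean, from -0.0050 to 0.19 without the libraries of 1 number, -0.0049 without miR-ctrl Day13WD number 1 and -0.00696 with the block and without number 1, and for Gp5 at Day10, from -0.90 to 0.076 without 1 library. The number of replicates, 3 per group, limits precision, as do low counts for Clec1b and Gp6, whose lowest libraries held 38 and 49 reads. Low counts also limit the calls of Selp, Itga2, Mcpt8, Prss34, Ctsg and Erg.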
